A study of Mus musculus with 9 samples.

Results

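The Kruppel-like factors Klf2, Klf3, Klf4, Klf5, Klf6, Klf7, Klf10, Klf13 and Klf15 were followed in the aorta of mice labelled BMAL+/+ or BMAL-/-. The label refers to BMAL1, the transcription factor encoded by Arntl that is a core activator of the circadian clock. Every probe set of the array that the platform annotation pairs with 1 gene, that gene being one of these 9, was taken, which gave 27 of 45037 probe sets and 9 of 18193 genes. Klf3 had 7 probe sets, Klf6 had 5, Klf7 had 4, Klf5 and Klf13 had 3 each, Klf4 had 2, and Klf2, Klf10 and Klf15 had 1 each. The probe set with the highest mean over all arrays represents its gene and is called the main probe set below.

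Total RNA of the aorta of male mice was hybridised to Affymetrix MOE430v2 arrays, 1 array per mouse sample. There were 5 arrays labelled BMAL+/+ (F01, F04, F07, F09 and F10) and 4 labelled BMAL-/- (F02, F03, F05 and F08), and the labels call them biological replicates. Both genotypes are given as partially backcrossed onto C57Bl/6J, no tissue-restricted deletion is named, and the sources used here give no age. All mice had at least 2 weeks of 12 h light and 12 h dark, then at least 30 h of darkness, and were perfused with saline before the vessel was taken at ZT14, early in the subjective night.

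Kruppel-like factors are zinc finger proteins that bind GC-rich and CACCC elements and either activate or repress their targets. In the vessel wall, KLF2 and KLF4 are induced by blood flow through a kinase cascade that ends at MEF2 proteins and keep endothelium quiescent, while KLF4 and KLF5 are tied to the loss of the contractile state of smooth muscle. KLF15 is induced by glucocorticoids and controls amino acid metabolism, and its expression is known to be rhythmic in other tissues. BMAL1 and its partner CLOCK bind the E-box, CACGTG.

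The promoter windows of the members are shown first because the comparison concerns a factor that binds a known DNA element. RefSeq windows of build GRCm38.p6, from 250 bases before to 50 bases after an annotated start, were matched by symbol for 7 of the 9 genes. Klf5 and Klf10 had no entry. Both strands were searched for CACGTG, for AGGTCA, the element of the REV-ERB and ROR receptors, for TTATGTAA or TTACGTAA, the D-box, for CACCC, and for the MEF2 site, with positions counted from 1 at the start and from -1 before it. The Klf15 window held CACGTG 3 times, at -228 to -223, at -172 to -167 and across the start at -3 to 3, and is shown up to position 20 with these letters in capitals (chr6:90462326-90462595, plus strand).
Klf15: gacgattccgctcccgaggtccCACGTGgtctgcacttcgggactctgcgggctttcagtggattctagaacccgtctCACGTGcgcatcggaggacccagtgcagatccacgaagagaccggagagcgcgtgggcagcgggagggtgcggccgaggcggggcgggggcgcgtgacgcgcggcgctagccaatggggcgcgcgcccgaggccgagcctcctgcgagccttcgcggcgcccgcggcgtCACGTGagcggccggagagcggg

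Klf4 and Klf6 each held 1 E-box, shown in capitals in 30 bases (chr4:55532640-55532669, minus strand, and chr13:5861434-5861463, plus strand). Klf2 held the MEF2 site, the element through which flow acts, at -118 to -109, in capitals in its line (chr8:72318934-72318963, plus strand).
Klf4: cgcccccgccccCACGTGcgcggagtttgt
Klf6: ctccaagctggtCACGTGgggggagaaggg
Klf2: tataccgcggCTAAATTTAGgctgagcccg

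Of all 32851 windows, 7.15% held CACGTG at least once and 0.0883% (29 windows) held it at least 3 times. Among the 2109 windows whose GC content was within 3 percentage points of the 73.3% of the Klf15 window, 11.3% held it, and the Klf15 window itself was the 1 that held it 3 times. The letters of the MEF2 site were in 0.557% of windows. CACCC, which Kruppel-like factors themselves bind, was in 57.5% of windows and in those of Klf2, Klf3, Klf7, Klf13 and Klf15, with 5 copies in Klf3 and 3 in Klf7. AGGTCA (16.3% of windows) and the D-box (1.06%) were in none of the 7. A match of letters is a description of the window and does not show that a factor binds there.

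**Figure D1:**
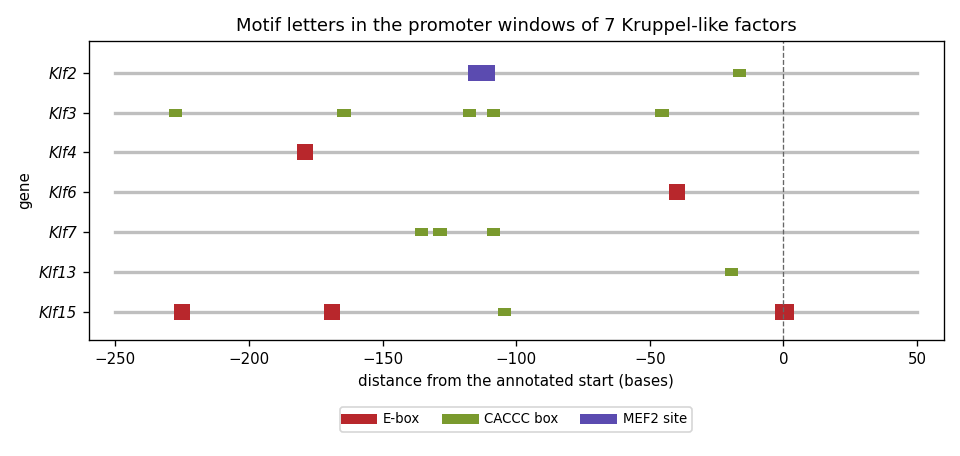
Position of the E-box, CACCC box and MEF2 letters in the promoter windows of 7 members, in bases from the annotated start (dashed line), with 1 row per gene. Klf15 has 3 E-boxes, Klf4 and Klf6 have 1 each, and Klf2 has the MEF2 site.

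Some arrays stood apart. On the array labelled BMAL+/+ F04 and the array labelled BMAL-/- F05, the clock genes Arntl, Npas2 and Nr1d2 read like those of the other genotype, and on the 7 other arrays Arntl was the brighter in those labelled BMAL-/-. Its log2 level was 5.87 to 6.22 on F02, F03 and F08 and 6.67 on F04, against 2.74 to 2.82 on F01, F07, F09, F10 and F05. Every direction below is therefore that of the labels, and values are given both for the 9 arrays as labelled and for the 7 arrays without F04 and F05. Since those arrays were left out for their clock genes, a gene that follows the clock is not tested independently in the 7. The source name of F01 says BMAL-/- whereas its title and strain say BMAL+/+, and it was kept in BMAL+/+. The Actb control was 3.91 to 4.24 log2 units brighter at its 3′ than at its 5′ end on F02, F03 and F04, against 1.38 to 2.72 on the other 6 arrays, and for Gapdh the same difference was 2.88 to 3.31 against -0.13 to 1.26. All 3 steep arrays are of the high Arntl level, and F08 is the only array of that level without the steep difference, so RNA ends and clock gene state cannot be told apart on F02, F03 and F04. Smooth muscle markers (7 of 7) and endothelial markers (9 of 9) were above the floor, a level of 3.16 that is the median of the array medians. Lymphocyte markers had a mean log2 level of 6.59 on F10 and 5.78 on F02, against 2.79 to 3.0 on the other 7 arrays. Mean log2 levels of skeletal muscle markers lay between 4.27 and 11.61, and those of heart muscle markers between 5.17 and 10.27, which varied within both labels. The aorta was taken whole, so fewer cells of a type and less RNA per cell cannot be told apart.

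None of the 9 factors passed the test. With limma and Benjamini-Hochberg adjustment over all 45037 probe sets, their adjusted p lay between 0.37 and 0.925 in the 9 arrays, where 0 probe sets (0% of those tested) passed, and between 0.208 and 0.81 in the 7, where 4 (0.00888%) passed. The main probe sets of all 9 read lower in the arrays labelled BMAL-/- in both comparisons, with a median log2 difference of -0.18 in the 9 arrays and -0.31 in the 7. Among the 11298 genes whose main probe set was above the floor, the median difference was 0.02 and 0.03, and 5334 and 5138 read lower. Quantile normalization turned Klf7 to 0.017 and 0.0335 in the 2 comparisons, and array weights put 6 of the 9 factors above 0 as labelled. At an unadjusted limma p under 0.05, 1 of the 9 factors was lower in each comparison, Klf15, against 1.15% (130) of these 11298 genes in the 9 arrays and 6.59% (744) in the 7.

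Markers of several cell types read lower together with the factors, and those of others read higher. Macrophage and leukocyte markers were lower at 8 of 8 in both comparisons, with median log2 differences of -0.50 and -0.90 and a mean level per array of 7.22 to 8.83 in BMAL+/+ and 6.39 to 7.83 in BMAL-/-. Smooth muscle markers were lower at 7 of 7, with medians of -0.54 and -0.86 and mean levels of 10.18 to 11.29 against 9.60 to 10.93. Acta2, Myh11, Tagln, Cnn1 and Smtn among them are also in the list of genes that KLF4 opposes, given below, so these lists are not independent. Fibroblast and adventitia markers were lower at 5 of 7, with medians of -0.73 and -1.19 and mean levels of 9.0 to 10.25 against 8.17 to 10.08. Adipocyte markers were lower at 5 of 6, with medians of -0.27 and -0.36 and mean levels of 11.43 to 12.65 against 11.09 to 12.27. Heart muscle markers were lower at 5 of 6 as labelled and 6 of 6 in the 7 arrays, with medians of -0.91 and -1.97. Their mean levels varied widely, from 5.77 to 10.27 against 5.17 to 9.47. Skeletal muscle markers were higher at 6 of 7 in both comparisons, with medians of 0.75 and 1.27. Red blood cell markers were higher at 3 of 3, with medians of 0.28 and 0.80. Epithelial markers were higher at 5 of 5 as labelled, with a median of 0.02. For smooth muscle, fibroblast and adipocyte markers the lowest arrays were F02, F03 and F04, those with the steep controls. Smooth muscle markers had 9.60 to 10.18 there and 10.80 to 11.29 elsewhere, with 10.93 on F08. Fibroblast markers had 8.17 to 9.0 against 9.61 to 10.25, and adipocyte markers 11.09 to 11.63 against 11.76 to 12.65. Macrophage markers were lowest on F03 and F08. None of these lists had a marker that passed the adjusted test. The parts of cell make-up and RNA ends in the values of the markers and factors were not tested.

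Over all 27 probe sets of the factors, 20 were lower and 7 higher in both comparisons. Of the 7 higher, 4 belong to the 4 probe sets with a mean under the floor, where very small shifts are all that is seen. At an unadjusted limma p under 0.05 there were 2 lower and 2 higher of 27 in the 9 arrays (14.8%), beside 8.67% of all probe sets in either direction and 0.75% lower. In the 7 there were 6 lower and 1 higher (25.9%), beside 23.7% of all in either direction and 3.7% lower. All the lower ones lay among the 23 probe sets above the floor. Of the 11298 genes above the floor at their main probe set, 1.15% were lower at that p in the 9 arrays and 6.59% in the 7. The 6 lower belong to 5 genes, and 4 of them had their lowest values on F02, F03 and F04, the arrays with the steep controls. Groups did not overlap at 1 of the 27 in the 9 arrays, the probe set 1458487_at of Klf3 below the floor, beside 0.773% of all in either direction and 0.127% lower. In the 7 they did not overlap at 8, 6 lower and 2 higher, beside 17.5% of all in either direction and 2.59% lower. Of the 11298 genes above the floor, 566 were lower without overlap in the 7. The p-values measure the spread between these samples.

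**Figure D2:**
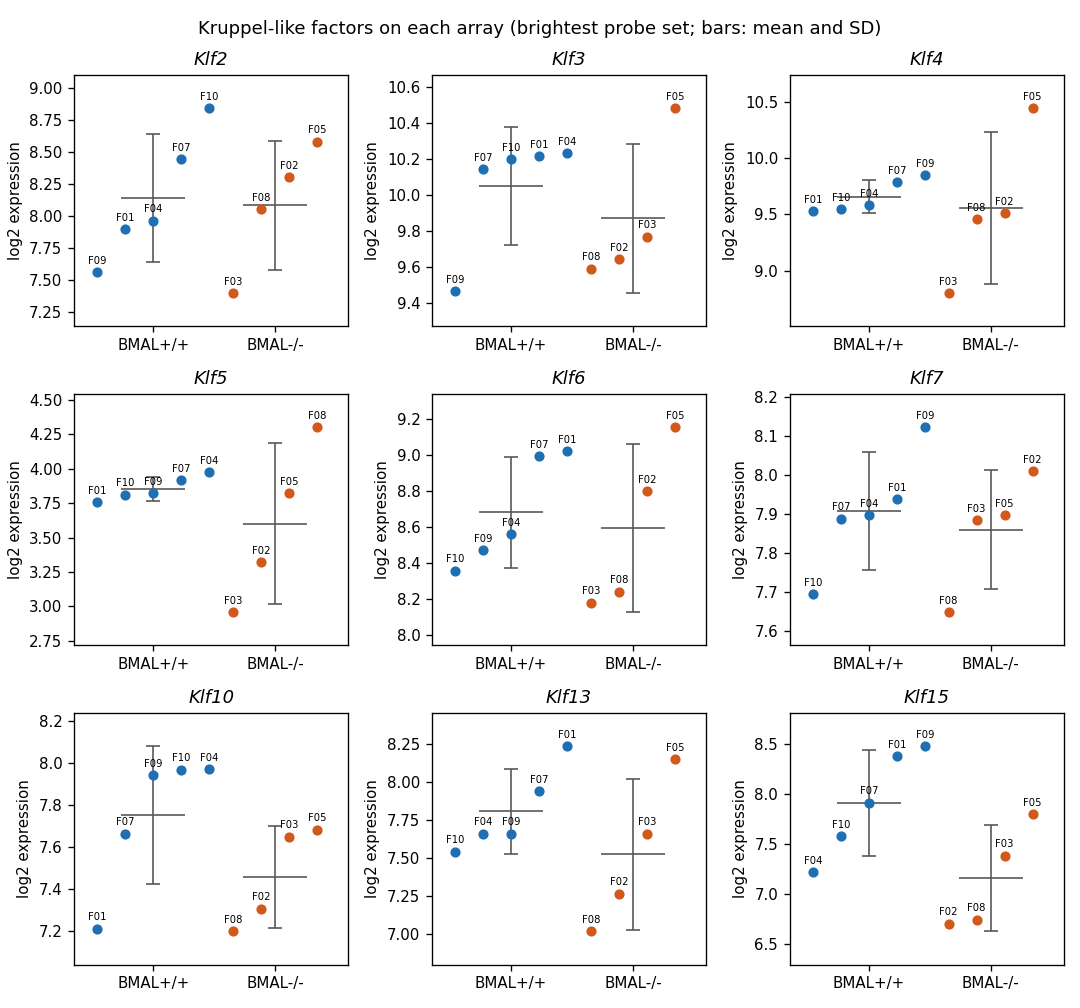
Log2 expression of each factor at its main probe set on every array, in arrays labelled BMAL+/+ (blue) and BMAL-/- (orange), with the group mean and SD as grey bars and the arrays of a group sorted by level. The groups overlap in all 9 panels, and F05 is the highest array for Klf3, Klf4 and Klf6.

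Klf15, which restrains the connective tissue growth factor gene in muscle and heart and drives amino acid breakdown, had the largest difference at a main probe set. It read 8.38, 7.22, 7.91, 8.47 and 7.58 on F01, F04, F07, F09 and F10, labelled BMAL+/+. On F02, F03, F05 and F08, labelled BMAL-/-, it read 6.71, 7.39, 7.80 and 6.75. The lowest BMAL+/+ array was F04 and the highest BMAL-/- array was F05, the arrays whose clock genes stand with the other genotype, and without them the groups did not overlap.

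As labelled, Klf15 was at 7.91 ± 0.53 (SD, n = 5) and 7.16 ± 0.53 (SD, n = 4), a difference of -0.75 ± 0.33 (SE) with an unadjusted limma p of 0.0491 (adjusted p = 0.37). In the 7 arrays the difference was -1.14 ± 0.29 (SE), with an unadjusted limma p of 0.00591 (adjusted p = 0.208). The sign held in all 24 alternatives for the 9 arrays and all 21 for the 7, while the unadjusted limma p was under 0.05 in 10 of the 24 and 20 of the 21. With F01 moved to BMAL-/- the difference was -0.39 in the 9 arrays and -0.68 in the 7. With array weights it was -0.27 as labelled (an unadjusted limma p of 0.29), and the 1 factor under 0.05 in that fit was Klf4, at 0.54. Of all 45037 probe sets, 12339 were under 0.05 in that fit. Leaving out each array in turn gave -0.97 to -0.60 as labelled. Without F02, F03 and F04, whose controls had the steepest difference between the ends, it was -0.81 ± 0.40 (SE) at an unadjusted limma p of 0.096. That fit left F05 and F08 in BMAL-/-. Without F04 alone, the lowest BMAL+/+ array, the difference was -0.93. With the Actb control difference as a covariate it was -0.63 ± 0.36 (SE), at an unadjusted limma p of 0.123. The part of RNA ends in the difference of Klf15 was not tested.

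The glucocorticoid-induced genes were listed because Klf15 is one such gene, and 5 of their 7 read lower in both comparisons, with a median log2 difference of -0.69 and -1.18. At an unadjusted limma p under 0.05 there was 1 lower in the 9 arrays and 4 lower and 1 higher in the 7, and none passed the adjusted test. The 2 with the smallest p were Zbtb16, a transcriptional repressor, at -1.58 ± 0.57 (SE, adjusted p = 0.37 in limma), and Mt2, a metallothionein, at -0.77 (adjusted p = 0.37). Fkbp5, a chaperone of the glucocorticoid receptor, was picked after its values were seen. It read 8.32 to 9.02 on F01, F07, F09, F10 and F05, and 5.82 to 6.75 on F02, F03, F04 and F08. The order of the arrays for Fkbp5 thus put F04 and F05 with the other genotype, and Klf15 was lower on all 4 arrays of the low Fkbp5 range than on the 5 others. The difference of Fkbp5 was -1.32 in the 9 arrays and -2.52 ± 0.28 (SE) in the 7, where its adjusted limma p was 0.121.

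The listed Klf15 targets were not lower on balance. Of 8 genes, 3 read lower and 5 higher in both comparisons, with median log2 differences of 0.03 and 0.02, and 0 were under an unadjusted limma p of 0.05 in the 9 arrays. Ccn2, the 1 listed target that KLF15 restrains, was at 0.11 and -0.21. In the 7 arrays 1 was under that p, Acss2, an acetyl-CoA synthetase, which was at 0.87 ± 0.13 (SE, adjusted p = 0.208) in groups that did not overlap. Gpt, the alanine transaminase, was at 0.29 and 0.53 (adjusted limma p of 0.576 and 0.291), and Tat, the tyrosine transaminase, lay below the floor on all arrays at 2.22 to 2.28.

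Klf2, the flow-induced factor of endothelium that also keeps lymphocytes quiescent, had a single probe set. It read 7.90, 7.96, 8.44, 7.56 and 8.84 on F01, F04, F07, F09 and F10, and 8.30, 7.40, 8.58 and 8.05 on F02, F03, F05 and F08. The highest array was F10 and the lowest F03, so both genotypes spanned most of the range of 1.44 log2 units.

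The differences of Klf2 were -0.06 ± 0.31 (SE) and -0.27 ± 0.37 (SE), with adjusted limma p of 0.925 and 0.631. F10 and F02 also had the highest lymphocyte markers. Cd79b, a B cell receptor subunit picked after its values were seen, read 9.08 on F10 and 7.72 on F02 against 2.85 to 3.95 elsewhere. F10 had the highest Klf2, and F02 followed F10, F05 and F07. Without F02 and F10 the difference of Klf2 was 0.04 as labelled, so its sign turned. It was -0.13 without F02 alone and 0.12 without F10 alone. The sign turned as well without F03 (0.17) or F07 (0.0175), whose lymphocyte markers were low. The part of lymphocytes in the level of Klf2 was not tested.

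Klf4, shared by endothelium and by smooth muscle that leaves its contractile state, read 9.53, 9.58, 9.79, 9.85 and 9.55 on F01, F04, F07, F09 and F10. On F02, F03, F05 and F08 it read 9.51, 8.80, 10.45 and 9.46. The arrays labelled BMAL+/+ lay between 9.53 and 9.85, whereas those labelled BMAL-/- held both the lowest array, F03, and the highest, F05. Their SD was 0.15 (n = 5) and 0.68 (n = 4).

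The difference of Klf4 was -0.11 ± 0.29 (SE, adjusted p = 0.843) in the 9 arrays and -0.42 ± 0.21 (SE, adjusted p = 0.234) in the 7, where the groups did not overlap. Its other probe set, which was dimmer, had differences of 0.16 and 0.06, of the opposite sign. Without F03 the main probe set was at 0.15 as labelled, so 1 array set the sign.

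Of the 6 listed genes that KLF2 and KLF4 raise in endothelium, 3 were lower and 3 higher in both comparisons, with median log2 differences of -0.07 and -0.09. In the 7 arrays 2 of the higher were under an unadjusted limma p of 0.05 in groups that did not overlap, and 0 of the lower were. They were Thbd, thrombomodulin, at 0.64 ± 0.20 (SE, adjusted p = 0.208), and Ptgds, a prostaglandin D synthase, at 1.82 ± 0.64 (SE, adjusted p = 0.208). As labelled they were at 0.39 and 0.85 (adjusted limma p of 0.469 and 0.557). Ptgds read 7.25 on F03 but 4.68 on F02 and 4.57 on F08, against 3.46 to 3.95 on the BMAL+/+ arrays of the 7, close to the floor. Tek, the angiopoietin receptor, was at -0.30 and -0.32 (adjusted limma p of 0.419 and 0.365), and Nppc, a natriuretic peptide and the other of the higher, lay under the floor at 2.04 to 2.13. Of the 5 measured genes that these factors hold down, 3 were lower and 2 higher, among them Edn1, the vasoconstrictor endothelin, at -0.46 ± 0.20 (SE, adjusted p = 0.37) and -0.60 (adjusted p = 0.208). Sele, an adhesion molecule for leukocytes, was under the floor at 2.45 to 2.56. The endothelial markers had a mean log2 level of 6.43 to 6.88 on the arrays labelled BMAL+/+ and 6.08 to 6.57 on those labelled BMAL-/-, and 7 of 9 were lower as labelled. Their part in these values was not tested.

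The listed smooth muscle genes that KLF4 opposes read lower in 5 of 7 cases in the 9 arrays and 6 of 7 in the 7. Median log2 differences were -0.49 and -0.86, and 0 and 3 genes were lower at an unadjusted limma p under 0.05. The 2 higher as labelled were Myocd (0.19) and Srf (0.05), which are transcription regulators and not contractile genes. Smtn, an actin-binding protein, was at 7.17 on F02, 7.37 on F03 and 8.34 on F04 against 8.52 to 9.30 on the other arrays. Its difference was -0.77 ± 0.41 (SE, adjusted p = 0.37 in limma). Myh11, the smooth muscle myosin heavy chain, was at 11.67 on F02, 11.55 on F03 and 12.16 on F04 against 12.78 to 13.30 elsewhere, a difference of -0.66 (adjusted p = 0.373). For Smtn and Myh11 the lowest arrays were thus those with the steep control difference. F08, of the same clock gene state without it, read 8.52 for Smtn and 12.78 for Myh11. F02, F03 and F04 were also the lowest arrays for Tagln and Cnn1 of this list, and were not for Acta2, Myocd and Srf. The part of RNA ends in these values was not tested.

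Klf5, an activator of smooth muscle growth after injury, was dim. Its main probe set read 3.76, 3.97, 3.91, 3.82 and 3.81 on F01, F04, F07, F09 and F10, and 3.32, 2.96, 3.82 and 4.30 on F02, F03, F05 and F08. The arrays labelled BMAL-/- lay on both sides of the narrow BMAL+/+ range, with F08 above it and F02 and F03 below.

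The differences of Klf5 were -0.25 ± 0.24 (SE, adjusted p = 0.542) and -0.30 ± 0.30 (SE, adjusted p = 0.505). As labelled it was -0.49 (an unadjusted limma p of 0.0243) without F08, where 12949 of all 45037 probe sets were under 0.05. It was -0.0407 without F03. The value in the 7 arrays rested on F08. Without it the difference was -0.69 (adjusted p = 0.0102), and with array weights it was -0.66 (adjusted p = 0.0327). These were the only alternatives in which any of the 9 factors passed, and 16445 and 15448 of all 45037 probe sets passed in them. Leaving out F08 kept only F02 and F03, both with steep controls, in BMAL-/-. Without F02, F03 and F04 the difference of Klf5 was 0.48, from F08 alone. The other 2 probe sets of Klf5 lay close to the floor, with differences of 0.12 and 0.08 as labelled. Of the 5 genes KLF5 activates in remodelling vessels, 2 were lower and 3 higher. Ccnd1, a cyclin, was at 0.39 (adjusted p = 0.383) and Vegfa, an endothelial growth factor, at 0.18 (adjusted p = 0.727).

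**Figure D3:**
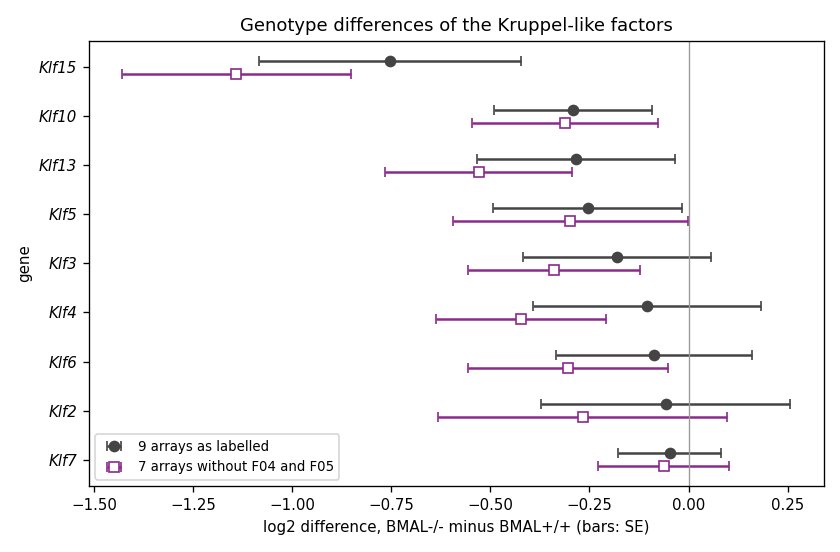
Log2 difference, BMAL-/- minus BMAL+/+, of each factor at its main probe set, with SE, for the 9 arrays as labelled (filled circles) and the 7 arrays without F04 and F05 (open squares). All 18 points lie below 0, and the Klf15 intervals lie farthest from it.

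Klf6, an injury-induced factor, read 9.02, 8.56, 8.99, 8.47 and 8.36 on F01, F04, F07, F09 and F10, and 8.80, 8.18, 9.15 and 8.24 on F02, F03, F05 and F08. The highest array was F05 and the lowest F03, and the groups overlapped over nearly their whole range. The differences were -0.09 ± 0.25 (SE, adjusted p = 0.848) and -0.30 ± 0.25 (SE, adjusted p = 0.425).

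A second probe set of Klf6, 1427742_a_at, gave another picture. It read 6.92, 5.18, 8.05, 7.75 and 8.0 on F01, F04, F07, F09 and F10, and 5.22, 3.99, 7.49 and 7.47 on F02, F03, F05 and F08. The low arrays were F02, F03 and F04, which are the arrays with the steepest 3′ to 5′ difference of the controls and share the high Arntl level. Its differences of -1.14 ± 0.88 (SE, adjusted p = 0.463) and -2.12 ± 0.79 (SE, adjusted p = 0.208) were the largest of the 27 probe sets in each comparison. The main probe set of Klf6 showed no such gap on those arrays, with 8.18 to 8.80 there and 8.24 to 9.15 elsewhere.

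Klf3, a repressor that recruits CtBP proteins, had the most probe sets. The main one read 10.22, 10.23, 10.14, 9.47 and 10.20 on F01, F04, F07, F09 and F10, and 9.64, 9.77, 10.48 and 9.59 on F02, F03, F05 and F08. F09 was below every other array and F05 above, so each label had an array at the far end. The differences were -0.18 ± 0.24 (SE, adjusted p = 0.664) and -0.34 ± 0.22 (SE, adjusted p = 0.309). As labelled it was -0.09 without F08, -0.39 without F05 and -0.33 without F09, and 0.22 with array weights.

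Among its dimmer probe sets, 1421604_a_at read 2.97 to 4.02 on F02, F03 and F04 and 5.03 to 5.80 elsewhere, and 1429360_at read 5.09 to 5.56 against 5.78 to 6.87. Their differences were -1.03 and -0.71 as labelled and -1.67 and -1.14 in the 7 arrays, each at an adjusted limma p of 0.37 and 0.208. Both thus had the same low arrays as the second Klf6 probe set. In all, 4 of the 23 probe sets of the factors above the floor had their lowest values on F02, F03 and F04 (17.4%), against 2246 of 22837 probe sets above the floor (9.83%), and 0 of the 9 main probe sets did. The fourth was 1449439_at of Klf7. In the 7 arrays, F02 and F03 are both labelled BMAL-/-, and no array labelled BMAL+/+ is as steep. On F08, the BMAL-/- array left, the Klf6 probe set read 7.47 and 1421604_a_at of Klf3 read 5.11, both within the range of F01, F07, F09 and F10, while 1429360_at of Klf3 read 5.78 and 1449439_at of Klf7 read 7.37, below it. The part of RNA ends in these differences was not tested.

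**Figure D4:**
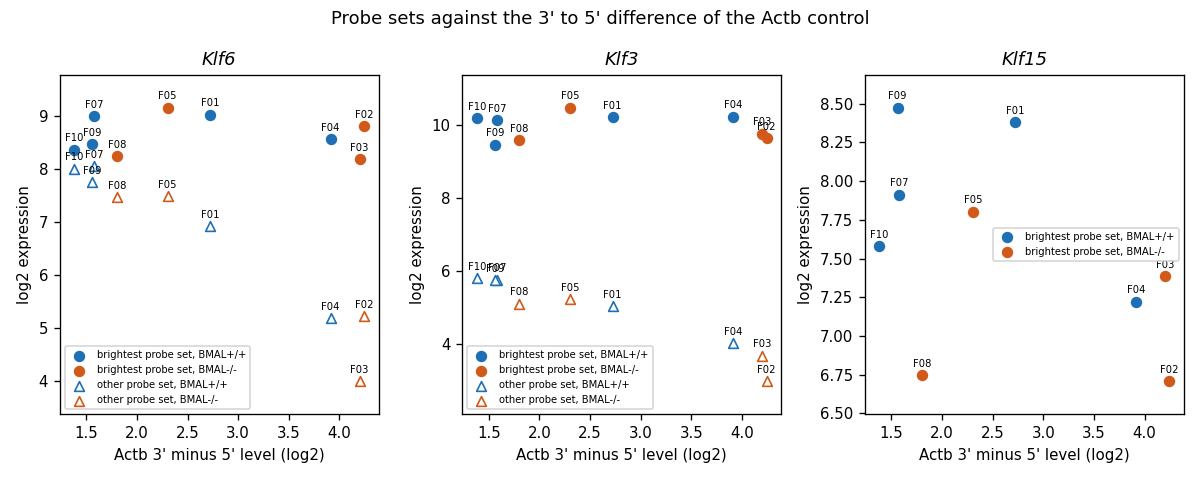
Log2 expression of Klf6, Klf3 and Klf15 on each array against the log2 difference between the 3′ and 5′ Actb control probe sets, for the main probe set (filled circles) and, for Klf6 and Klf3, 1 other probe set (open triangles), blue for BMAL+/+ and orange for BMAL-/-. The open triangles drop on F02, F03 and F04, which carry different labels but share the high Arntl level, while the filled circles of Klf6 and Klf3 do not.

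The cofactors and ubiquitin ligases of Kruppel-like factors, CtBP among them, had 5 of 10 lower and 5 higher in both comparisons, with medians of 0.07. Sin3a, a corepressor scaffold, was at -0.33 (adjusted p = 0.37) and Hdac2, a histone deacetylase, at 0.42 (adjusted p = 0.37). The upstream regulators had 5 of 8 lower in the 9 arrays and 6 of 8 in the 7, with medians of -0.11 and -0.21. Map2k5, the kinase that relays flow to KLF2 and KLF4, read 9.51, 9.56 and 9.55 on F02, F03 and F04 and 7.34 to 8.45 on the other arrays. Its difference was 0.83 ± 0.52 (SE, adjusted p = 0.393) in the 9 arrays and 1.52 ± 0.33 (SE, adjusted p = 0.208) in the 7, where the groups did not overlap. The highest arrays were those with the steep controls, while F08, without a steep control difference, read 8.45, above the 8.08 that was the most on the BMAL+/+ arrays of the 7. Tgfb1, the growth factor that induces Klf10, read 3.47 to 3.54 on the arrays labelled BMAL-/-, and 3.51 and 3.54 on F01 and F04. These values lay close to the floor of 3.16. It read 3.91 to 4.63 on F07, F09 and F10, and its difference of -0.43 (adjusted p = 0.37 in limma) rested on those arrays.

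Klf10, an early gene of the TGF-beta response, read 7.21, 7.97, 7.66, 7.94 and 7.97 on F01, F04, F07, F09 and F10, and 7.30, 7.65, 7.68 and 7.20 on F02, F03, F05 and F08. Of the arrays labelled BMAL+/+, 3 lay above every BMAL-/- array, while F01 was at their lower end. The differences were -0.29 ± 0.20 (SE, adjusted p = 0.419) and -0.31 ± 0.23 (SE, adjusted p = 0.379). With F01 left out the difference was -0.43 as labelled, with F01 in BMAL-/- it was -0.48, and the sign held in all 24 and 21 alternatives.

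Klf13, a regulator of chemokine genes in T cells and of heart muscle genes, read 8.23, 7.66, 7.94, 7.66 and 7.54 on F01, F04, F07, F09 and F10. It read 7.26, 7.66, 8.15 and 7.02 on F02, F03, F05 and F08. F05 was the second highest array and F08 the lowest. The differences were -0.28 ± 0.25 (SE, adjusted p = 0.518) and -0.53 ± 0.24 (SE, adjusted p = 0.21). As labelled it was -0.12 without F08, -0.49 without F05, -0.0349 with F01 in BMAL-/- and 0.13 with array weights.

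The second probe set of Klf13, 1432543_a_at, read 7.29, 6.5, 7.18, 7.15 and 7.50 on the arrays labelled BMAL+/+ and 6.55, 6.37, 6.89 and 6.53 on those labelled BMAL-/-. Here F04 read with the BMAL-/- arrays and F05 was the highest of them. Its differences were -0.54 ± 0.21 (SE), with an unadjusted limma p of 0.0303, and -0.80 ± 0.14 (SE), with an unadjusted limma p of 0.000947, the smallest of the 27, and the adjusted p were 0.37 and 0.208. Both brighter probe sets of Klf13 were thus lower in both comparisons without passing, and the third was under the floor.

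Klf7, which acts in neurons and restrains fat cell formation, had the main probe set with the smallest range over the 9 arrays. It read 7.94, 7.90, 7.89, 8.12 and 7.69 on F01, F04, F07, F09 and F10, and 8.01, 7.88, 7.90 and 7.65 on F02, F03, F05 and F08. The whole range was 0.47 log2 units, a 1.39-fold spread, and neither label stood apart. The differences were -0.05 ± 0.13 (SE, adjusted p = 0.842) and -0.06 ± 0.16 (SE, adjusted p = 0.81). Its other 3 probe sets were also lower in both comparisons, by up to -0.35 and -0.52, the values of 1449439_at. They were not all as steady, since 1419356_at ranged over 1.89 log2 units, from 6.58 on F02 to 8.47 on F01.

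The spread of the main probe sets of the other factors over the 9 arrays was wider, from 0.77 log2 units for Klf10 to 1.77 for Klf15, which is a 3.41-fold spread. F05 was the highest array for 3 of the 9 factors, and F03 the lowest for 4 (Klf2, Klf4, Klf5 and Klf6) and F08 for 3 (Klf7, Klf10 and Klf13). Arrays labelled BMAL-/- were thus the lowest for 8 factors and the highest for 4.

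Because several Kruppel-like factors are induced within minutes of a stimulus, immediate early genes were set beside them. Of 17, 11 were lower in the 9 arrays and 13 in the 7, with median log2 differences of -0.19 and -0.63, and 4 were lower at an unadjusted limma p under 0.05 in the 7. Btg2, an antiproliferative factor, was at -0.76 (adjusted p = 0.37) and Ier2, an early response gene, at -0.71 (adjusted p = 0.37). Nr4a1, an orphan nuclear receptor picked after its values were seen, was highest on F05 (10.76) and lowest on F03 (6.70), the ends of the Klf4 range as well. F05 was the highest array for 6 of the 14 listed genes above the floor, among them Egr1 (8.98), Jun (9.37), Atf3 (7.33) and Fosl2 (9.24), and not for the other 8, among them Fos, which read 7.84 there and up to 9.17 on F01. The part of this early response in the level of Klf4 was not tested.

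**Figure D5:**
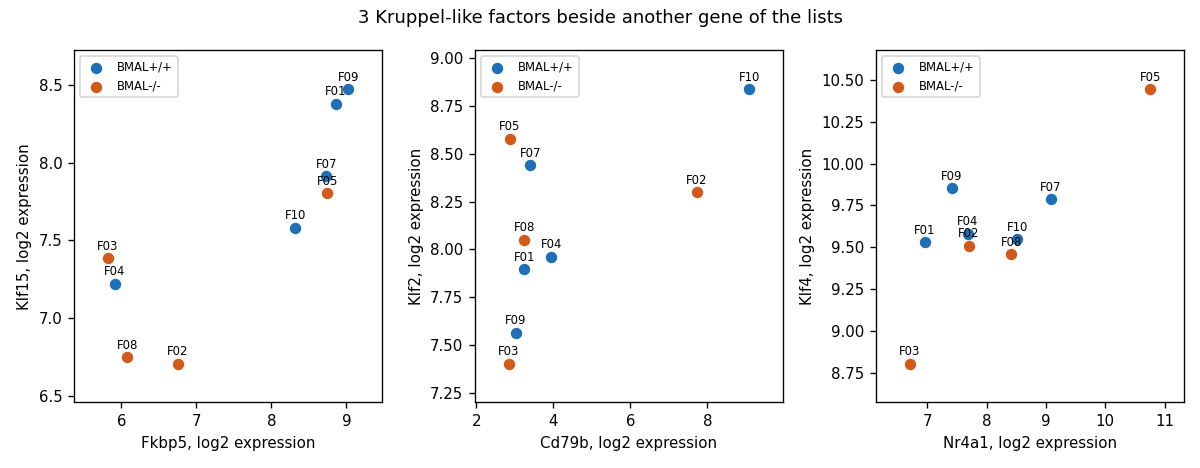
Log2 expression of Klf15 against Fkbp5, Klf2 against Cd79b and Klf4 against Nr4a1 on each of the 9 arrays, blue for BMAL+/+ and orange for BMAL-/-, with pairs chosen after their values were seen. F04 lies with F02, F03 and F08 in the Klf15 panel and F05 with the other BMAL+/+ arrays, F10 and F02 stand apart in Cd79b, and F05 and F03 are the ends of the Klf4 panel.

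Of the other Kruppel-like and Sp factors, 14 of 16 were measured, 6 of them near the floor. As labelled, 6 were lower and 8 higher with a median log2 difference of 0.03. Of the higher, 7 (Klf14, Klf16, Klf17, Sp5, Sp6, Sp7 and Sp8) never read more than 1 log2 unit above the floor. Of the 5 that did, Klf9, Klf12, Sp1 (-0.23) and Sp3 (-0.13) were lower and Sp4 (0.45) higher. Klf9, which glucocorticoids and thyroid hormone induce, read 12.19, 11.73, 11.87, 11.64 and 11.42 on F01, F04, F07, F09 and F10, and 11.09, 11.65, 11.66 and 11.09 on F02, F03, F05 and F08. F02 and F08 lay below all other arrays for Klf9, as they did for Klf15. The differences of Klf9 were -0.40 ± 0.20 (SE, adjusted p = 0.37) and -0.51 ± 0.23 (SE, adjusted p = 0.214). All 5 of its probe sets above the floor were lower as labelled, by -0.35 to -1.49, 2 of them at an unadjusted limma p under 0.05. The probe set at -1.49, 1 of these 2, read lowest on F02, F03 and F04, the arrays with the steep controls. It read 5.06 to 5.73 there and 6.59 to 9.06 elsewhere. The part of RNA ends in this difference was not tested. Another of the 5, at -0.59, had a mean of 3.43, close to the floor. Klf12, a repressor, was at -0.51 (adjusted p = 0.571) and -0.95 (adjusted p = 0.257), with F02 lowest at 5.78. Klf14 and Klf16 lay at the floor, with differences of 0.19 and 0.04 as labelled. Klf14 and Sp8, whose level of 2.50 to 2.70 was under the floor, had the smallest p of the list (adjusted limma p of 0.37 for both).

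For each factor the genes whose levels over the 9 arrays were most like it were taken from 6310 genes above the floor with an SD of at least 0.3, by Pearson's r across arrays, as a description with no test. Klf15 was most like Fam171b (0.963), Lgmn (0.944), a lysosomal protease, and Fez1 (0.941). Klf2 was most like Rab32 (0.95), Lbr (0.937) and Slc11a1 (0.9), a metal transporter of phagocytes. Klf3 was most like Sulf2 (0.948), Osmr (0.945) and Tmem168 (0.929), and Klf4 like Ces5a (0.905), Stard8 (0.89) and Gpnmb (0.887). Klf6 had Slc7a2 (0.942), a transporter of arginine, Stxbp6 (0.935) and Eef2k (0.93). Klf13 had Gdap10, Fam135a and Kat6b, with 0.944 to 0.945. Klf7 had Gata2 (0.944), Adam23 (0.876) and Vat1 (0.866), and Klf5 had B3gnt9 (0.933), Fam110b (0.924) and Frmd6 (0.921). Klf10 had the least close genes, Msantd3 (0.79), Zfp606 (0.753) and Gpr146 (0.749). All such values come from the same 9 arrays and share their RNA quality and tissue make-up.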

How the data were processed

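The authors deposited log2 expression values for 45101 probe sets on 9 arrays. GCRMA and MAS5 are named in the submitters' processing notes, with no role or version, and settings are not given in the sources used here. Values near the floor of 3.16 are compressed, so that a tiny shift there can seem precise. They were used unaltered (array medians 3.13 to 3.24), with 64 control probe sets left out. Of the remaining 45037, the platform annotation gives 1 gene for 34945 and several for 932, and 9160 are absent from it. Symbols were updated through RefSeq gene identifiers (GRCm38.p6) for 34741.

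Genotype was the only term of a limma 3.58.1 model (R 4.3.3, lmFit and eBayes with trend), tested two-sided at a Benjamini-Hochberg adjusted p of 0.05 over all 45037 probe sets. Differences, in log2 units, subtract BMAL+/+ from BMAL-/-. The script was tested on simulated data. The groups share no replicate numbers. The number of arrays limits the precision. Plots used matplotlib 3.10.9.

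The members, the 22 lists (164 genes, of which 11 had no probe set of their own) and the comparison without F04 and F05 were chosen with earlier results of these data known. Named were all 9 factors, the 2 genes of each pathway list with the smallest p as labelled, the Kruppel-like factors above the floor outside the 9, and the 3 genes most like each factor. The CACCC and MEF2 searches, and the alternatives without F02, F03 and F04, with the Actb difference as a covariate and without F02 and F10, were added after the data were seen. Protein sequences were not used here.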

Additional observations from a re-analysis of the deposited data

Results flagged for a closer look

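Of 46 groups of 4 or 5 arrays checked over the probe sets of the factors, 4 held an array far from the others of its group. Chance flags about 1 in 20 groups. Klf3 at its main probe set, 1454666_at, read 9.47 on F09 and 10.14 to 10.23 on the other arrays labelled BMAL+/+. At the probe set 1442920_at of Klf3, F04 read 4.11 where the other BMAL+/+ arrays read 4.05 to 4.06, and F08 read 3.61 against 4.08 to 4.14 on the other BMAL-/- arrays. At the probe set 1451739_at of Klf5, F04 read 3.36 against 3.05 to 3.13 on the other BMAL+/+ arrays.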

How the results depend on the processing

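Klf10 and Klf15 kept a negative difference in all alternatives of both comparisons, and Klf2, Klf3, Klf4, Klf6 and Klf13 in all 21 alternatives of the 7 arrays. In the 9 arrays 0 factors passed at an adjusted p under 0.05 in any alternative. The cause of the changes below was not tested.

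In the 9 arrays, the number of factors at an unadjusted p under 0.05 was 0 after quantile normalization, without a variance trend, in the one-way ANOVA F-test, without F02, F03 and F04, with the Actb difference as a covariate and without F02 and F10, and 0 to 1 when each array was left out in turn. The number of probe sets with an adjusted p under 0.05 was 4 without F04 and F05 and 2 without F02, F03 and F04. With array weights the differences were 0.10 for Klf2, 0.22 for Klf3, 0.54 for Klf4, 0.20 for Klf6, 0.0033 for Klf7 and 0.13 for Klf13. Quantile normalization gave 0.017 for Klf7, F01 in BMAL-/- gave 0.0834 for Klf6, and averaging the probe sets of a gene gave 0.0275 for Klf4. Without F02, F03 and F04 they were 0.13 for Klf2, 0.0304 for Klf3, 0.27 for Klf4 and 0.24 for Klf5. With the Actb difference as a covariate they were 0.10 for Klf2 and 0.0643 for Klf4, and without F02 and F10 0.0449 for Klf2. Leaving out each array in turn gave -0.22 to 0.17 for Klf2 (above 0 without F03, F07 or F10), -0.40 to 0.15 for Klf4 (above 0 without F03), -0.27 to 0.0499 for Klf6 (above 0 without F03 or F08) and -0.10 to 0.0228 for Klf7 (above 0 without F08 or F09). It gave -0.39 to -0.09 for Klf3, -0.49 to -0.0407 for Klf5, -0.43 to -0.21 for Klf10, -0.49 to -0.12 for Klf13 and -0.97 to -0.60 for Klf15.

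In the 7 arrays, the number of probe sets with an adjusted p under 0.05 was 2 after quantile normalization, with F01 in BMAL-/-, with the Actb difference as a covariate and without F02 and F10, 296 without F02, F03 and F04, 15448 with array weights, and 2 to 16445 (the latter without F08) when each array was left out. The number of factors with an adjusted p under 0.05 was 1 with array weights and 0 to 1 when each array was left out. At an unadjusted p under 0.05 it was 3 with array weights, 2 after centring, without F02, F03 and F04 and with the Actb difference as a covariate, and 1 to 2 when each array was left out. Klf7 was at 0.0335 after quantile normalization, 0.0467 with array weights and -0.14 to 0.037 when each array was left out (above 0 without F08 or F09). Klf5 was at 0.48 without F02, F03 and F04, 0.32 with the Actb difference as a covariate and 0.0063 with its probe sets averaged. Without F02, F03 and F04 only F08 is left in BMAL-/-, and it is assumed to vary like the BMAL+/+ arrays. Klf5 has no value without probe sets that can match several transcripts.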
